A study of Mus musculus with 2 samples.

Results

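Hox genes and the other patterning homeobox genes code for DNA-binding proteins that tell cells where along the body axis, and in which organ compartment, they lie. The account covers the protein-coding genes of the 4 Hox clusters and of the Meis, Pbx, Pknox, Tgif, Irx, Lhx, Pax, Emx, Tshz and Zfhx families, taken by symbol. The deposited table lists 44 of them among 10617 distinct gene symbols. The GENCODE vM21 annotation holds 80 genes that meet the same rule, and the other 36 were not analysed here. The table keeps only genes at or under the authors' corrected p-value limit of 0.05, so the members described are those for which the authors' comparison of the libraries passed that limit.

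RNA was sequenced from the cap mesenchyme of mouse kidneys at embryonic day 15.5, the Six2+ nephron progenitors from which nephrons form, isolated by fluorescence-activated sorting. The comparison asks how these progenitors differ when p53 is lost. The knockout group (KO) carried the Six2CreGFP transgene with floxed p53 alleles (Six2CreGFP+;p53f/f), which Cre removes in Six2-expressing cells. The wild-type group (WT) carried the same transgene with intact p53 (Six2CreGFP+;p53+/+). Both were of a mixed CD1 and C57BL background, and each group had 1 library made from about 2 µg of total RNA, so no difference has a replicate check and no test between the genotypes was possible. The number of embryos behind each library is not given in the sources used here.

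Hox proteins bind DNA poorly alone and gain specificity from TALE homeodomain partners, the Pbx, Meis and Pknox proteins. In the mouse metanephric mesenchyme, Hox11 proteins act in a complex with Eya1 and Pax2 to switch on Six2 and Gdnf, and Hox10 proteins are needed for the renal stroma to integrate with the nephrogenic zone. Irx proteins pattern segments of the developing nephron, Emx2 is needed in the ureteric bud, and Tshz3 in the smooth muscle of the ureter.

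Read density is the authors' value per gene, which behaves as RPKM, a level scaled for gene length and for depth. Differences are log2(KO + 1) minus log2(WT + 1), which understates the folds of genes with low density, and the ratio of KO over WT is given with a 95% exact interval from estimated reads that covers counting error only. A gene over the density floor has a mean density at or over 7.30 RPKM, the median of the table. Trp53, the gene for p53, was at 5.38 RPKM in the KO library and 33.9 RPKM in the WT library. The labelled cell type's marker Six2 was at 509 RPKM in KO and 482 RPKM in WT, in cells sorted on a Six2 transgene. Implied depths were about 85600000 reads in KO and 91200000 reads in WT. Members over the floor had at least 939 estimated reads in KO and 1190 in WT. The median difference of all listed genes was -0.11, and counts relative to that shift are given beside those on the deposited densities. GC- and length-corrected values had the median difference of genes alike in transcript GC content and length taken out.

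The Hox genes and the abundant partners differed little between the genotypes. On the log2 measure with its pseudocount of 1, the members at least 1.5-fold apart were all lower in KO and of low density. As a plain ratio, 2 other members of low density were at least 1.5-fold higher. Of the 44 members, 19 were higher and 25 lower in KO, with a median log2 difference of -0.11. Over all listed genes 36.1% were higher and 63.9% lower, with a median of -0.11 as well. Relative to the median of all listed genes, 22 members were higher and 22 lower. None of the 44 was at least 1.5-fold higher in KO on the log2 measure, against 0.951% of all listed genes. Tshz3, Irx3, Meis1, Emx2 and Irx1 were at least 1.5-fold lower, 5 of 44, against 5.49% of all listed genes. All 5 lay among the 16 members under the floor, where 8.57% of listed genes were that much lower. Of the 28 members over the floor, none reached 1.5-fold in either direction, against 0.659% higher and 2.41% lower among all listed genes over it. Over the floor 15 members were higher and 13 lower, where 44.2% of listed genes were higher and 55.8% lower. Under it 4 were higher and 12 lower, where 28.1% of listed genes were higher and 71.9% lower, and 1.24% were at least 1.5-fold higher. Among listed protein-coding genes alone the shares were 36.3% higher, 63.7% lower, 0.64% at least 1.5-fold higher and 5.59% at least 1.5-fold lower, or 2.88% higher and 21.8% lower as a plain ratio.

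**Figure D1:**
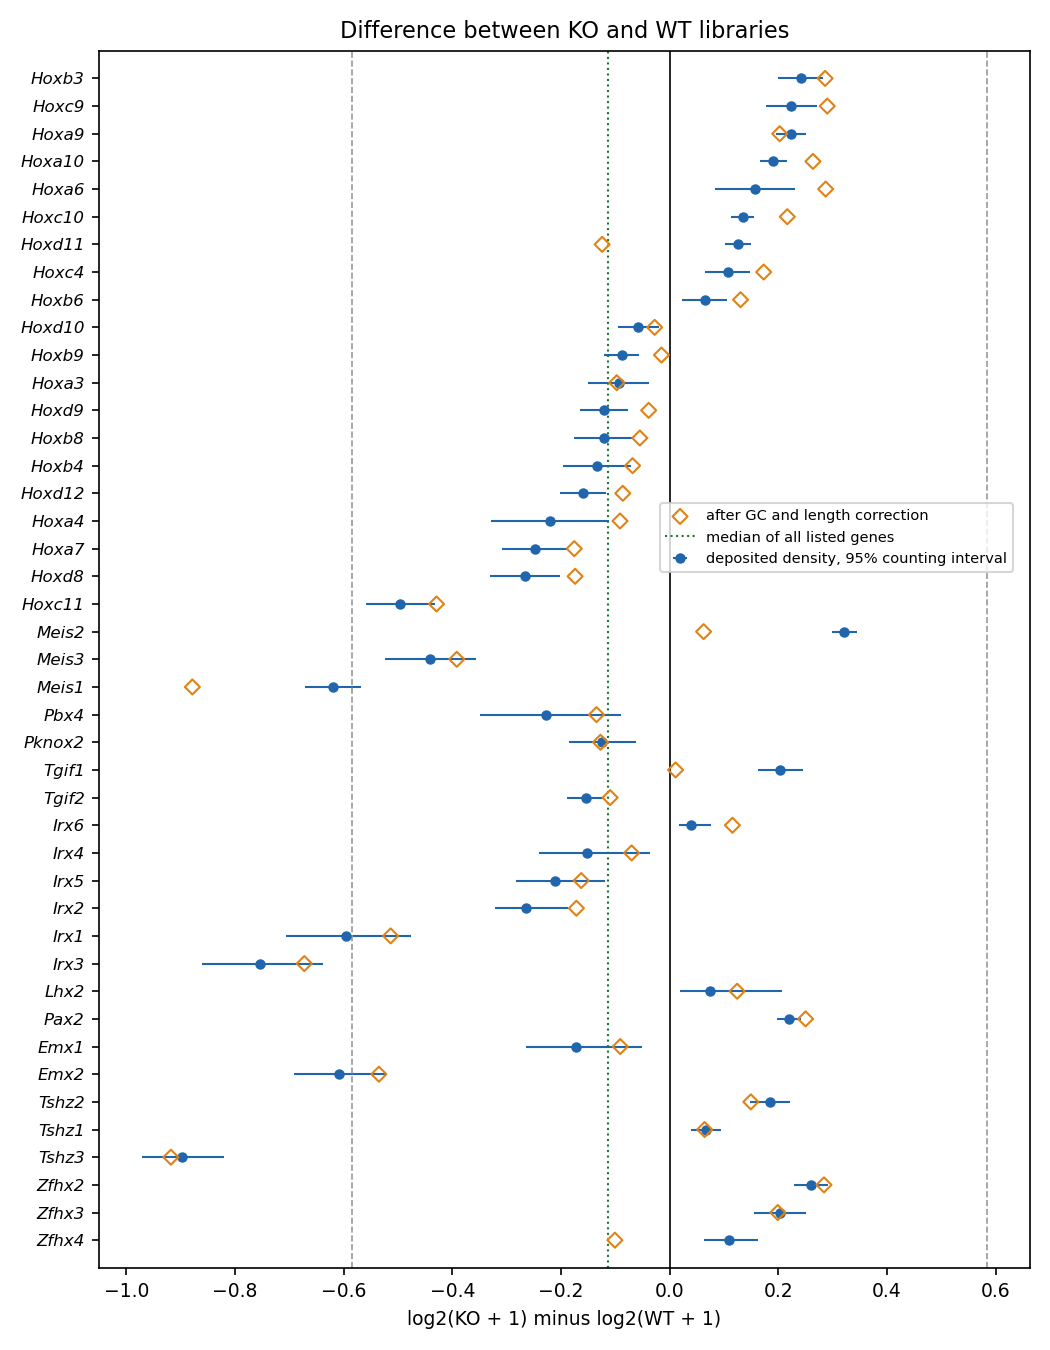
Log2 difference between the KO library and the WT library for 43 of the listed members, grouped by family, with the 95% counting interval as a bar and the GC- and length-corrected value as an open diamond. Dashed lines mark 1.5-fold, the dotted line marks the median of all listed genes at -0.11, and Tshz3, Irx3, Meis1, Emx2 and Irx1 lie at or beyond the lower dashed line.

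All 20 listed Hox genes were over the density floor. Of these, 9 were higher and 11 lower in KO, with a median log2 difference of -0.073. Relative to the median of all listed genes the split was 12 higher and 8 lower. On GC- and length-corrected values it was 8 higher and 12 lower, where 2566 of all listed genes were higher and 7942 lower. Apart from Hoxc11, the KO over WT ratios of the Hox genes lay between 0.820 and 1.19. The summed density of the 20 genes was 943 RPKM in KO and 911 RPKM in WT. The annotation holds another 18 Hox genes that meet the rule, so these sums and orders are over the listed genes only.

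The order of the Hox genes by density was nearly the same in both libraries, with a Spearman's rho of 0.98 over 20 genes that share gene length and base composition between the libraries. In the A, B and C clusters the gene with the highest density lay in paralogue group 9 or 10. Hoxa10 led the A cluster, Hoxb9 the B cluster, Hoxc10 the C cluster and Hoxd11 the D cluster, in KO and in WT alike. The ranks within each cluster were equal in both libraries, except that Hoxa3 and Hoxa4, the lowest of the A cluster, were swapped. Paralogue groups 9 to 13 are the posterior, Abdominal-B-like genes, and their 10 listed members summed to 709 RPKM in KO and 680 RPKM in WT. The 10 listed members of groups 1 to 8, which act further forward along the axis, summed to 234 RPKM in KO and 231 RPKM in WT.

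**Figure D2:**
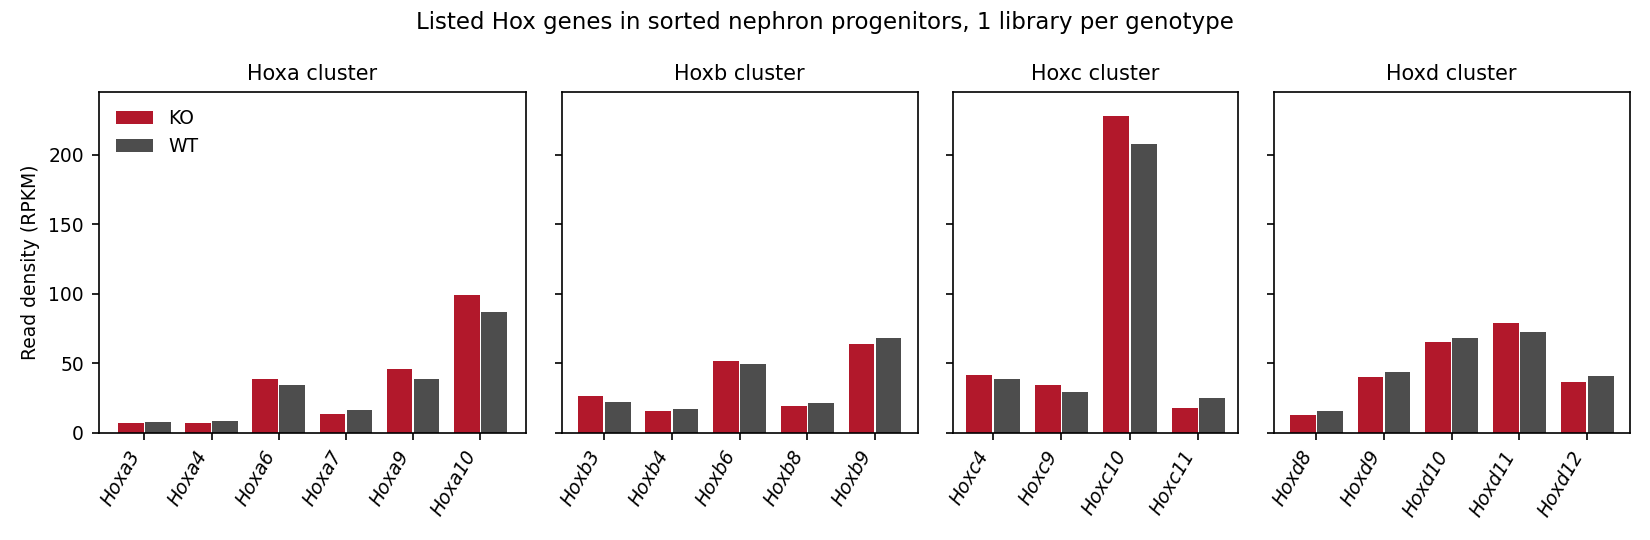
Read density in RPKM of each listed Hox gene, in 4 panels by cluster and ordered by paralogue group, with the KO library as the left bar and the WT library as the right bar of each pair. Hoxc10 stands highest in both libraries, at 228 RPKM in KO and 208 RPKM in WT, and Hoxc11 shows the widest gap relative to its level.

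The Hox10 genes had the highest summed density of any paralogue group, 393 RPKM in KO and 363 RPKM in WT over 3 genes. Hoxc10 (ENSMUSG00000022484) was at 228 RPKM in KO and 208 RPKM in WT, a ratio of 1.10 (1.08 to 1.11). That placed it above 98.1% of listed genes in KO and 97.8% in WT, and it made up 70.9% of the listed density of its cluster in KO and 69.1% in WT. Hoxa10 was at 99.0 RPKM in KO and 86.6 RPKM in WT, a ratio of 1.14 (1.12 to 1.16). Hoxd10 was at 65.5 RPKM in KO and 68.2 RPKM in WT, a ratio of 0.960 (0.935 to 0.986), and it was on the higher side once centred on the median of all genes, at 0.057. The genes of this group were therefore within 1.5-fold in both directions and did not share a direction on the deposited densities.

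Hox11 genes are needed to form the mouse kidney, and the 2 that were listed went opposite ways on the deposited densities. Hoxc11 (ENSMUSG00000001656) had the largest difference of any Hox gene, at 17.5 RPKM in KO and 25.1 RPKM in WT, a ratio of 0.698 (0.666 to 0.731) and a log2 difference of -0.50. It was also lower on the GC- and length-corrected scale, at -0.43. Both listed Hox11 genes were below 0 on that scale, where the median of all listed genes was -0.11. Hoxd11 was at 78.8 RPKM in KO and 72.1 RPKM in WT, a log2 difference of 0.13. On the corrected scale Hoxd11 was at -0.12, close to that median. Its transcript has a GC content of 42.4%, the lowest of all members. Because Hoxd11 is the more abundant gene, the listed Hox11 density summed to 96.2 RPKM in KO and 97.2 RPKM in WT. Hoxd12 of the neighbouring group was at 36.4 RPKM in KO and 40.8 RPKM in WT.

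Hox9 genes were split evenly. Hoxa9 was at 45.7 RPKM in KO and 39.0 RPKM in WT, and Hoxc9 was at 34.1 RPKM in KO and 29.1 RPKM in WT, ratios of 1.17 in both cases. Hoxb9 was at 64.0 RPKM in KO and 68.0 RPKM in WT, and Hoxd9 was at 40.1 RPKM in KO and 43.7 RPKM in WT. Their summed density was 184 RPKM in KO and 180 RPKM in WT. Hoxb9 was on the higher side once centred on the median of all genes, at 0.026.

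Among groups 1 to 8, Hoxb3 showed the largest difference upward and Hoxd8 the largest downward. Hoxb3 was at 26.2 RPKM in KO and 22.0 RPKM in WT, a ratio of 1.19 (1.16 to 1.23). Its value is uncertain, since 52.9% of its annotated exon bases are shared with the antisense RNA Hoxb3os on the opposite strand and the strand used in counting is not given. Hoxb3os was itself at 44.0 RPKM in KO and 33.8 RPKM in WT, and reads of the overlapping pair cannot be told apart. Hoxd8 was at 12.8 RPKM in KO and 15.6 RPKM in WT, a ratio of 0.820 (0.782 to 0.861). Hoxa7 was at 13.8 RPKM in KO and 16.5 RPKM in WT, a ratio of 0.832 (0.795 to 0.871). Of the exon bases of Hoxa7, 20.4% are shared with an antisense RNA on the opposite strand. Hoxd8 and Hoxa7 therefore lay below WT by less than 1.5-fold, as did Hoxb8 at 19.5 RPKM in KO and 21.3 RPKM in WT.

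The 2 listed Hox6 genes were both higher in KO. Hoxa6 was at 38.8 RPKM in KO and 34.7 RPKM in WT, and Hoxb6 was at 51.6 RPKM in KO and 49.3 RPKM in WT. Of the listed Hox4 genes, Hoxc4 was higher in KO, at 41.8 RPKM against 38.8 RPKM in WT. Hoxa4 was lower, at 6.88 RPKM in KO and 8.18 RPKM in WT, and Hoxb4 was also lower, at 15.4 RPKM in KO and 17.0 RPKM in WT. Hoxa3 was at 7.21 RPKM in KO and 7.77 RPKM in WT, a log2 difference of -0.094 that turned to 0.020 once centred on the median of all genes.

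By cluster, most listed C genes were higher in KO and most listed D genes lower. Among all listed genes over the floor 44.2% were higher and 55.8% lower. The 4 listed genes of the C cluster (GRCm38, chromosome 15, 102954427 to 103036843, plus strand) summed to 321 RPKM in KO and 301 RPKM in WT, with 3 higher and Hoxc11 lower. The 6 listed genes of the A cluster (chromosome 6, 52168510 to 52240854, minus strand) summed to 211 RPKM in KO and 193 RPKM in WT, with 3 higher and 3 lower. The 5 of the B cluster (chromosome 11, 96271457 to 96346685, plus strand) summed to 177 RPKM in KO and 178 RPKM in WT. The 5 of the D cluster (chromosome 2, 74674929 to 74707933, plus strand) summed to 234 RPKM in KO and 240 RPKM in WT, and 4 were lower on the deposited densities. All 5 were below 0 on the GC- and length-corrected scale, with a median of -0.086 against -0.11 over all listed genes. Once centred on the median of all genes, Hoxd10 and Hoxd11 were higher, at 0.057 and 0.24. Hoxd9, Hoxd12 and Hoxd8 were then lower, at -0.0063, -0.045 and -0.15. Hoxc10 and Hoxc11 start 12.4 kb apart and had log2 differences of opposite sign, 0.13 and -0.50. The start sites of Hoxa9 and Hoxa10 are 9.8 kb apart, and both genes were higher in KO. Neighbouring genes of a cluster thus did not always share a direction.

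RNAs from the antisense strand of these loci were few in the table. Hotair, a non-coding RNA of the C cluster, was at 0.732 RPKM in KO and 0.988 RPKM in WT. Of 15 such RNAs looked for, Hotair and Hoxb3os were listed. Hoxa11as, of the A cluster, was looked for only after the table had been seen, and was at 37.7 RPKM in KO and 40.4 RPKM in WT.

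Among the TALE partners described here, Meis2 was abundant and the others were low. Pbx4 was at 0.561 RPKM in KO and 0.827 RPKM in WT, an estimated 106 reads and 167 reads. Pknox2, another TALE partner, was at 1.73 RPKM in KO and 1.98 RPKM in WT, a log2 difference of -0.12 and close to the median of all listed genes.

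The 3 Meis genes did not share a direction. Meis2 (ENSMUSG00000027210, chromosome 2, 115863064 to 116065839, minus strand) was at 29.5 RPKM in KO and 23.4 RPKM in WT, a ratio of 1.26 (1.24 to 1.28) and the largest log2 difference upward of any member, 0.32. On the GC- and length-corrected scale it was 0.062, and its transcript has a GC content of 43.8%. Meis1 (ENSMUSG00000020160, chromosome 11, 18880430 to 19018958, minus strand), which is expressed in renal stroma, was at 2.86 RPKM in KO and 4.93 RPKM in WT, a ratio of 0.580 (0.553 to 0.609). Its log2 difference was -0.62 on the deposited densities and -0.88 after the same correction, and centring on the median of all genes put it inside 1.5-fold, at -0.51. Meis3 was at 4.95 RPKM in KO and 7.08 RPKM in WT, a ratio of 0.699 (0.653 to 0.750). The most abundant Meis gene was thus higher in KO and the others lower, and their summed density was 37.3 RPKM in KO and 35.4 RPKM in WT.

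The promoters of Meis2 and Meis1 are shown because these close relatives had the largest log2 differences upward and, within the family, downward. Each runs from 250 bases before to 50 bases after a RefSeq start site (GRCm38.p6), 5′ to 3′ on the gene's strand, with CG dinucleotides in capitals.
Meis2, chr2:116064570-116064869 (minus strand): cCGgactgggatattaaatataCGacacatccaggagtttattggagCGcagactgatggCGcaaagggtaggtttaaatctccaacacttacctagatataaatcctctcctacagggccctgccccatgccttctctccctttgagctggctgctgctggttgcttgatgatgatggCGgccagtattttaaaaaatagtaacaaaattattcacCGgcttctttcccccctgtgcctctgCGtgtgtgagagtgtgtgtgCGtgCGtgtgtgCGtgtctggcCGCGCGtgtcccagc
Meis1, chr11:19018920-19019219 (minus strand): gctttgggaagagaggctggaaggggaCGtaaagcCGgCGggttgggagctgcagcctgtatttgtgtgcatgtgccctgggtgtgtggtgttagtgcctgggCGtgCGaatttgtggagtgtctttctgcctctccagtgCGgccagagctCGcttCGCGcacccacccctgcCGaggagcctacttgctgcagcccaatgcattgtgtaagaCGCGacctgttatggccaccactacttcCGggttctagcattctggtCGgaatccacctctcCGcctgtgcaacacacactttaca
These stretches hold 13 CG dinucleotides in Meis2 and 15 in Meis1, against a median of 7 over all 32851 promoters of the table. The median over the 39 promoters of 30 listed members was 20, with a median GC content of 60.3% against 52.7% over all promoters.

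Sequence motifs were searched on both strands of the member promoters. The Meis core TGACAG was found in 3 of 39 member promoters, against 19.2% of all promoters. The Pbx-Hox motif TGATTNAT was found in 2 of 39, against 3.22% of all. The posterior Hox motif TTTATNG was found in 3 of 39, against 10.9% of all. TATAAA, whose reverse complement can overlap the posterior Hox motif, was found in 3 of 39, against 13.6% of all. The CCAAT box was found in 14 of 39, against 37.4% of all. The p53 half-site was found in 2 of 39, those of Emx2 and Hoxd10, against 8.36% of all. The promoters of Meis2 and Meis1 both hold the CCAAT box, and neither holds the Meis core, the Pbx-Hox motif or the p53 half-site. The Meis2 promoter also holds the posterior Hox motif and TATAAA, which the Meis1 promoter does not. A match describes the letters in these windows and is not a site.

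The Tgif genes, TALE repressors that restrain TGF-beta and retinoid signals, were split. Tgif1 was at 18.7 RPKM in KO and 16.1 RPKM in WT, a ratio of 1.16 (1.13 to 1.20), and its log2 difference of 0.20 was 0.011 on the GC- and length-corrected scale. Tgif2 was at 38.1 RPKM in KO and 42.5 RPKM in WT, a ratio of 0.896 (0.875 to 0.918). The value of Tgif2 is uncertain, since 56.7% of its exon bases are shared with an annotated transcript on the opposite strand.

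All 6 Irx genes of the annotation were listed, every one of them under the density floor. In KO 5 were lower, where 71.9% of all listed genes under the floor were lower. Irx3 (ENSMUSG00000031734, chromosome 8, 91798511 to 91802067, minus strand) was at 1.06 RPKM in KO and 2.48 RPKM in WT, a ratio of 0.428 (0.369 to 0.498). Irx1 was at 0.802 RPKM in KO and 1.72 RPKM in WT, a ratio of 0.465 (0.389 to 0.556). Irx2 was at 0.139 RPKM in KO and 0.368 RPKM in WT, a ratio of 0.378 (0.255 to 0.549). These are genes of the tubule segments that form as nephrons differentiate. Irx5 was at 0.195 RPKM in KO and 0.384 RPKM in WT, a ratio of 0.507 (0.358 to 0.714). Irx4 was at 0.260 RPKM in KO and 0.400 RPKM in WT, a ratio of 0.650 (0.461 to 0.911). With 39 to 251 estimated reads in KO and 95 to 623 in WT for these 5 genes, the intervals are wide. Each lies below 1, but the table keeps only genes past the authors' limit in a comparison of the same libraries. These intervals are therefore no separate check of the differences.

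The Irx genes lie in 2 clusters, and both showed the lower density in KO. Irx1, Irx2 and Irx4 on chromosome 13 summed to 1.20 RPKM in KO and 2.49 RPKM in WT. Irx3, Irx5 and Irx6 on chromosome 8 summed to 1.28 RPKM in KO and 2.86 RPKM in WT. Irx6 was the exception, at 0.0277 RPKM in KO and listed at 0 in WT. Its fold change corresponds to 8 reads in KO (Poisson 95% interval 3.45 to 15.8), and a count of 0 in WT allows up to 3 reads, so the 8 reads stand at least 2.84-fold higher in KO against that floor. With the error of the 8 reads included, the exact interval of the ratio starts at 1.82. As a plain ratio, with no pseudocount, 9 of the 43 members with density in both libraries were at least 1.5-fold lower in KO, against 22.8% of such listed genes, and 2 were at least 1.5-fold higher, against 3.7%. All of these were under the floor, where the shares of listed genes were 43.1% lower and 6.67% higher. Of the 9, 5 were Irx genes and the others were Tshz3, Meis1, Emx1 and Emx2. The 2 higher were Lhx2, at a ratio of 3.20, and Zfhx4, at 1.62. None of the 28 members over the floor passed 1.5-fold as a plain ratio, against 2.67% of listed genes lower and 0.772% higher.

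Of the paired box and LIM homeobox genes the table lists Pax2 and Lhx2. Pax2 (ENSMUSG00000004231, chromosome 19, 44756049 to 44838268, plus strand), which is needed for metanephric mesenchyme and ureteric bud to form, was at 72.0 RPKM in KO and 61.7 RPKM in WT, a ratio of 1.17 (1.15 to 1.19). Its log2 difference was 0.22 on the deposited densities and 0.25 on the GC- and length-corrected scale. Lhx2, known from forebrain and eye, was near the detection limit, at 0.0797 RPKM in KO and 0.0250 RPKM in WT, an estimated 30 reads and 10 reads.

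Both Emx genes were lower in KO. Emx2 (ENSMUSG00000043969, chromosome 19, 59458690 to 59465357, plus strand) was at 4.78 RPKM in KO and 7.80 RPKM in WT, a ratio of 0.612 (0.570 to 0.657). Its log2 difference of -0.61 lay inside 1.5-fold once centred on the median of all genes (-0.49) and on the GC- and length-corrected scale (-0.54). Emx1 was at 0.230 RPKM in KO and 0.386 RPKM in WT, a ratio of 0.595 (0.400 to 0.875). The antisense RNA Emx2os, named after its values were seen, was at 0.477 RPKM in KO and 0.642 RPKM in WT.

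The Tshz genes held the largest log2 difference of all members. Tshz3 (ENSMUSG00000021217, chromosome 7, 36698118 to 36773545, plus strand) was at 0.814 RPKM in KO and 2.38 RPKM in WT, a ratio of 0.342 (0.304 to 0.384) and a log2 difference of -0.90. Its relatives went the other way. Tshz1 was at 39.9 RPKM in KO and 38.0 RPKM in WT, a ratio of 1.05 (1.03 to 1.07). Tshz2 was at 16.4 RPKM in KO and 14.3 RPKM in WT, a ratio of 1.15 (1.12 to 1.18), a value that is uncertain because 65.2% of its exon bases are shared with a non-coding RNA on the opposite strand. Tshz3 and Irx3, the members with the largest log2 differences downward, kept 1.5-fold under centring and on the GC- and length-corrected scale.

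Their promoters are shown in the same form, with CG dinucleotides in capitals.
Tshz3, chr7:36697868-36698167 (plus strand): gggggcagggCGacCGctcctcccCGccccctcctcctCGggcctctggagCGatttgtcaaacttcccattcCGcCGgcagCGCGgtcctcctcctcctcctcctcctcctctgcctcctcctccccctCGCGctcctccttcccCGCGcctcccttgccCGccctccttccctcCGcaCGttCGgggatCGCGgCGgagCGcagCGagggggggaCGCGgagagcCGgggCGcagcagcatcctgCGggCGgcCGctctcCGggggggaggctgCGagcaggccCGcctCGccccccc
Irx3, chr8:91801605-91801904 (minus strand): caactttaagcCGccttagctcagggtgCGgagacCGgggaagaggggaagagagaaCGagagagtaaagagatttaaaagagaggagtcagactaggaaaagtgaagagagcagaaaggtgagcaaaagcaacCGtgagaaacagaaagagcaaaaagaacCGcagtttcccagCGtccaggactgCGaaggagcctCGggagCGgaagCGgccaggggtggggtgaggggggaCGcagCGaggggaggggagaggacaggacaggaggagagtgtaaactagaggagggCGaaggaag
The Tshz3 stretch holds 33 CG dinucleotides at a GC content of 76.0%, and the Irx3 stretch 14 at 56.0%. None of the 6 motifs searched was found in either.

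The Zfhx genes, large zinc finger homeodomain proteins, were higher in KO on the deposited densities, 3 of 3. Zfhx2 was at 8.81 RPKM in KO and 7.19 RPKM in WT, a ratio of 1.22 (1.20 to 1.26). Zfhx3 was at 1.77 RPKM in KO and 1.41 RPKM in WT, a ratio of 1.26 (1.19 to 1.32). Zfhx4 was at 0.236 RPKM in KO and 0.146 RPKM in WT, a ratio of 1.62 (1.36 to 1.94), and its log2 difference of 0.11 changed sign to -0.10 on the GC- and length-corrected scale. In the authors' deposited table the signed fold changes of these genes were 1.27, 1.31 and 1.68.

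**Figure D3:**
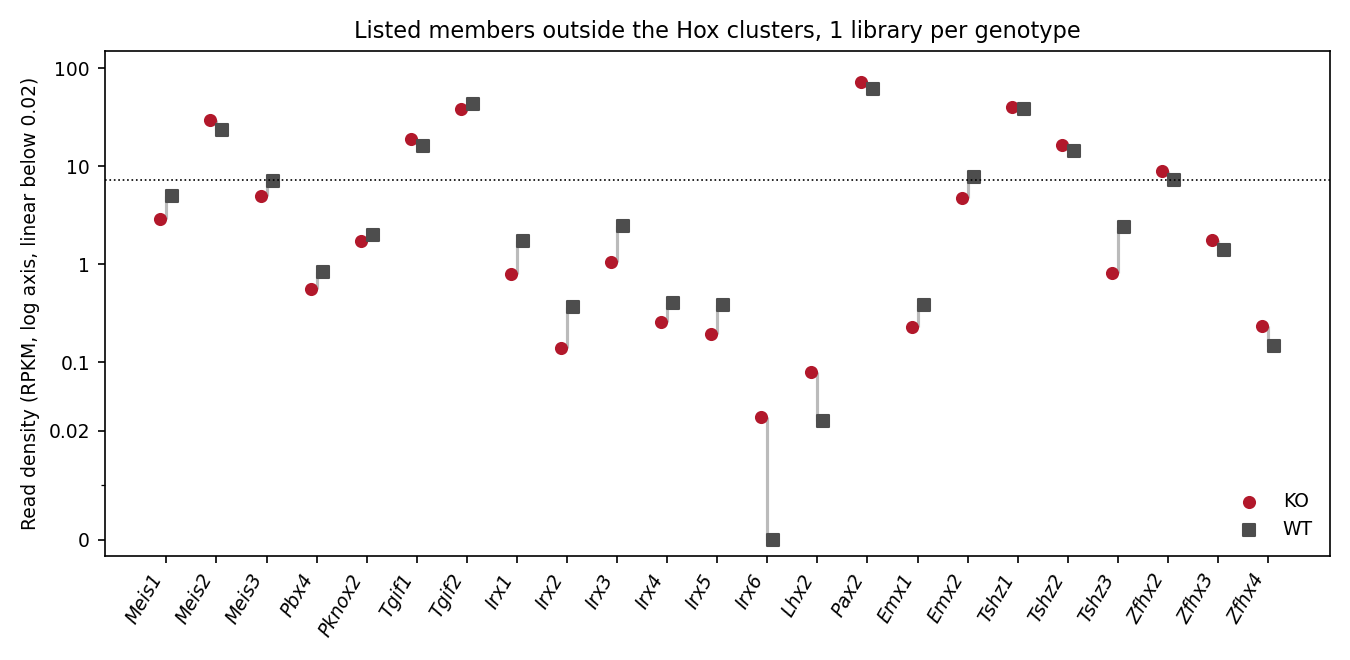
Read density in RPKM, on a log axis that is linear below 0.02, of 23 listed members outside the Hox clusters, with the KO library as circles and the WT library as squares. The dotted line is the density floor at 7.30 RPKM, and the members with the widest gaps, such as Tshz3 and the Irx genes, lie below it.

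Markers of some other cell types were also lower in KO, beside a share of 63.9% lower over all listed genes. All 12 listed stromal markers were lower in KO, with a summed density of 135 RPKM in KO and 299 RPKM in WT, and Col1a1, a fibrillar collagen gene, was at 7.82 RPKM in KO and 37.8 RPKM in WT. Early nephron markers were mixed. Of 10 listed, 7 were lower, close to the share over all listed genes, with sums of 222 RPKM in KO and 230 RPKM in WT. Among them Lfng, a modifier of Notch signalling, was at 5.87 RPKM in KO and 11.4 RPKM in WT, and Osr2 was at 8.27 RPKM in KO and 15.3 RPKM in WT. The other 3 over the floor were higher, with Ccnd1 at 174 RPKM in KO and 159 RPKM in WT, Jag1 at 11.4 RPKM in KO and 10.4 RPKM in WT, and Cdh6 at 9.76 RPKM in KO and 8.71 RPKM in WT. All 9 listed podocyte and tubule markers were lower, with sums of 13.5 RPKM in KO and 58.0 RPKM in WT, led over the floor by Fxyd2 at 2.25 RPKM in KO and 18.9 RPKM in WT. Of 11 listed ureteric bud markers, 10 were lower, with sums of 52.7 RPKM in KO and 61.9 RPKM in WT. Most of that sum is Etv5, the marker that was higher, at 41.8 RPKM in KO and 40.5 RPKM in WT, and the other 10 summed to 10.97 RPKM in KO and 21.33 RPKM in WT. No marker of these 4 lists was at 0 in either library. Their part in the lower density of Tshz3, Meis1, Emx2 and the Irx genes was not tested, and in bulk RNA fewer cells of a type and less RNA per cell cannot be told apart.

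The blood and vessel lists were lower as well. All 8 listed erythroid markers summed to 23.6 RPKM in KO and 632 RPKM in WT, all 8 leukocyte markers to 2.00 RPKM in KO and 15.1 RPKM in WT, and all 10 endothelial markers to 10.9 RPKM in KO and 23.2 RPKM in WT. Neural markers summed to 4.58 RPKM in KO and 4.99 RPKM in WT over 4 listed genes, of which 3 were higher and Stmn2 was lower, at 0.159 RPKM in KO and 1.796 RPKM in WT, with Foxd3 at 0 in WT. Muscle markers summed to 50.9 RPKM in KO and 42.3 RPKM in WT over 3 listed genes, nearly all of it Des, with Myf5 at 0 in WT.

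**Figure D4:**
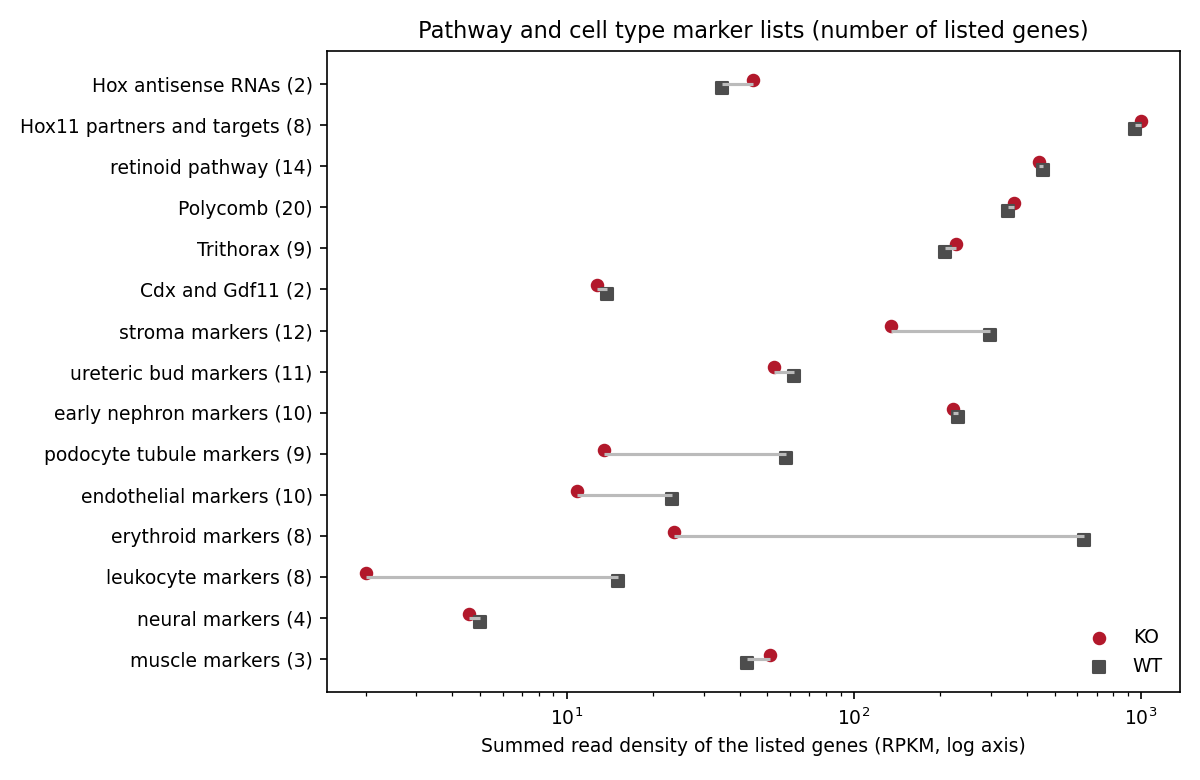
Summed read density in RPKM, on a log axis, of the listed genes of each pathway and cell type marker list, with the KO library as circles and the WT library as squares and the number of listed genes in brackets. The lists of genes that work with Hox proteins lie close together in both libraries, while erythroid, leukocyte, podocyte and tubule, endothelial and stromal sums were lower in KO.

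Genes that work with Hox11 in the metanephric mesenchyme were close in both libraries. Of 8 listed, 4 were higher and 4 lower in KO, with a median log2 difference of 0.0015 against -0.11 over all listed genes, and none reached 1.5-fold. Gdnf, the ligand that draws out the ureteric bud, was at 59.5 RPKM in KO and 64.1 RPKM in WT. Eya1, the transcriptional partner of Hox11, was at 84.1 RPKM in KO and 66.8 RPKM in WT. The log2 difference of Eya1 was 0.33 on the deposited densities and 0.12 on the GC- and length-corrected scale. The largest differences of this list were those of Cited1, at 16.1 RPKM in KO and 23.6 RPKM in WT, and Osr1, at 52.95 RPKM in KO and 69.2 RPKM in WT.

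Chromatin regulators of Hox genes differed by small amounts. Of 20 listed Polycomb genes, which silence Hox genes, 12 were higher and 8 lower on the deposited densities. On the GC- and length-corrected scale 8 were higher and 12 lower, where 2566 of all listed genes were higher and 7942 lower. The Polycomb median was 0.12 on the deposited densities, on which 36.1% of all listed genes were higher. On the corrected scale it was -0.041, against -0.11 over all listed genes. Bmi1, a core subunit of the PRC1 complex, was at 34.2 RPKM in KO and 22.2 RPKM in WT, the member of the list at least 1.5-fold higher, though its log2 difference was 0.31 on the corrected scale. Phf19 was at 12.8 RPKM in KO and 18.3 RPKM in WT. Of 9 listed Trithorax genes, which keep Hox genes active, 8 were higher on the deposited densities, with a median of 0.20. On the corrected scale all 9 were higher, with a median of 0.097, where 2566 of all listed genes were higher and 7942 lower. Psip1 was at 40.8 RPKM in KO and 33.1 RPKM in WT, and Aff4 was at 18.6 RPKM in KO and 15.6 RPKM in WT. The log2 difference of Psip1 was 0.29 on the deposited densities and 0.044 on the corrected scale, and that of Aff4 was 0.24 and 0.029.

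The retinoid pathway, which sets Hox boundaries along the axis, had 12 of 14 listed genes lower, with a median of -0.15. Over all listed genes 63.9% were lower, with a median of -0.11. The 2 genes that were higher were Aldh1a2 and Rarb. Aldh1a2, which makes retinoic acid, was at 286 RPKM in KO and 272 RPKM in WT. The receptor gene Rarb was at 18.9 RPKM in KO and 17.7 RPKM in WT. The binding protein gene Crabp1 was at 7.08 RPKM in KO and 11.9 RPKM in WT, and Dhrs3, a retinaldehyde reductase, was at 8.66 RPKM in KO and 12.2 RPKM in WT. On the log2 measure, Crabp1 and the receptor gene Rarg were at least 1.5-fold lower, 2 of 14, against 5.49% of all listed genes. Rarg was at 1.97 RPKM in KO and 4.44 RPKM in WT. As a plain ratio Cyp26b1 (0.322), Aldh1a1 (0.345), Rxrg (0.376) and Cyp26a1 (0.445), all under the density floor, were also at least 1.5-fold lower. The share of listed genes that much lower as a plain ratio was 22.8%. Of 7 genes looked for in Cdx and Gdf11 signals, Furin and Pcsk5 were in the table, both lower, and Furin was at 10.5 RPKM in KO and 11.1 RPKM in WT.

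Base composition moved with the difference between the libraries, and its part in the results was not tested. Spearman's rho between transcript GC content and the log2 difference was -0.24 over the 44 members and -0.42 over 10508 listed genes with a gene model, a description over genes that share their libraries. The transcripts of the members had a GC content of 42.4% to 66.8%, and those of the Hox genes of 42.4% to 61.0%. Of the 44 members, 39 kept the sign of their difference under every alternative scaling and correction tried, and those that did not were Hoxa3, Hoxb9, Hoxd10, Hoxd11 and Zfhx4. A changed pseudocount cannot alter a sign, so the alternative pseudocounts are no check of it. Exon bases shared with another annotated gene were found for 15 members, 8 of them Hox genes. For 11 members the other gene lay on the opposite strand, and the strand used in counting is not given.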

How the data were processed

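The 2 libraries were assigned to KO and WT from the genotype labels. Per the submitters' processing notes, CASAVA 1.8, Novoalign 2.08.02, FastQC and the builds GRCm38 and mm10 were named, with no role given. The sources used here do not give the counting rule or strand. The deposited table holds, per the file headers, a read density per library, a p-value and corrected p-value, a fold ratio and a signed fold change score. The deposited density behaves as RPKM (inferred here; the header says density). The authors' deposited fold ratio equals the ratio of densities scaled by 1.04. The deposited p-value compares 2 libraries, not genotypes, and was not used to call members.

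Folds of genes at 0 in the other library were whole multiples of 1 step, within 0.01 of a read, for 70 of 75 genes in KO and 150 of 171 in WT. Density times GENCODE vM21 exon length per read was constant within 0.5% for 48 of 67 and 101 of 149 of them with a gene model. Depths and read estimates from this are approximate, since the authors' gene lengths may differ. Of 8 symbols on more than 1 row, the row with the highest density was kept. The pseudocount was 1, the size rule 1.5-fold, and no filter on low density was applied unless stated. The correction for GC content and length removed each bin's median (10 bins by GC, each split into 4 by length) and added back the median of all genes. Clopper-Pearson 95% intervals cover counting error only. Promoters came from RefSeq (GRCm38.p6). Members over the floor or at least 1.5-fold apart were named, with other members given to complete their families, and of each other list up to 2 genes over the floor with the largest difference. Gdnf, Eya1, Aldh1a2, Rarb, Rarg, Pcsk5, Stmn2, Ccnd1, Jag1 and Cdh6 were picked with their values known. So were Aldh1a1, Cyp26a1, Cyp26b1, Rxrg and members under the floor named beyond this rule. Some genes that the symbol pattern matches are not reported here by name, though counts over members include those listed. The members and lists were chosen with earlier results of these data known. Scripts ran in Python 3.11.15 and were tested on simulated data.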

Additional observations from a re-analysis of the deposited data

How the results depend on the processing

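No paired analysis was possible because each genotype has 1 library, and for the same reason no library could be left out. The median difference over all members, -0.11, was -0.058 with a pseudocount of 4, 0.066 over members past the density floor, 0.11 past the stricter floor, the 75th percentile, 0.0070 once centred on the median of all genes, -0.066 with the authors' deposited fold change and -0.069 on GC- and length-corrected values. The Hox median of -0.073 was 0.12 past the 75th percentile, 0.042 once centred, -0.017 with the authors' deposited fold change and -0.033 after the correction. The 5 members at least 1.5-fold lower became 6 with a pseudocount of 0.25 (13% of all listed genes) and 0 with 4 (1.7%). Past the density floor the count was 0 (2.41% of listed genes past it), and 0 past the stricter floor (1.58%). At 2-fold it was 0 (1.7%) on the log2 measure with its pseudocount of 1. As plain ratios Tshz3 (0.342), Irx2 (0.378), Irx3 (0.428) and Irx1 (0.465) were more than 2-fold lower, and Lhx2 (3.20) more than 2-fold higher. The count was 2 of 44 once centred (3.85% of all listed genes) and 3 of 44 after the correction (5.86%). With the authors' deposited fold change, which uses no pseudocount, it was 8 of 43 (20.1%), and 2 of 43 were higher (4.52%). The floors remove low members by construction, and the cause of the other shifts was not tested. Of 219 values of single members under the alternatives, 95 stayed within the counting interval and 124 moved beyond it. Counting error is wide only for members with few reads, such as Irx6 and Lhx2.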

Other observations

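Homeobox genes outside these families, were taken from a list of 80 names written after the table was seen. Of 32 listed, 15 were higher and 17 lower in KO on the deposited densities, with a median log2 difference of -0.067 against -0.11 over all listed genes. On GC- and length-corrected values 9 were higher and 23 lower, where 2566 of all listed genes were higher and 7942 lower. Those at high density differed little. Six3 was at 27.2 RPKM in KO and 22.6 RPKM in WT, Six5 at 51.1 RPKM in KO and 53.4 RPKM in WT, and Meox1, a cap mesenchyme gene, at 34.1 RPKM in KO and 36.9 RPKM in WT. Several genes of low density were lower in KO. Pou3f3 was at 1.93 RPKM in KO and 4.16 RPKM in WT, and Alx1 at 0.831 RPKM in KO and 2.77 RPKM in WT. Prox1 went the other way, at 1.74 RPKM in KO and 0.857 RPKM in WT, and Msx2 was at 1.88 RPKM in KO and 1.21 RPKM in WT. The named genes of this list were chosen after their values were seen.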
